A study of Mus musculus with 6 samples.

Results

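The genes described here encode the subunits of the glutamate and GABA receptors, the main excitatory and inhibitory neurotransmitter receptors of the brain. They were chosen by gene symbol, with earlier results of these data known. The glutamate receptor genes were the AMPA (Gria), kainate (Grik), NMDA (Grin), delta (Grid) and metabotropic (Grm) genes of the authors' deposited comparison table. The GABA receptor genes were its GABA-A (Gabr) and GABA-B (Gabbr) genes. The choice gave 47 genes on 49 transcript clusters, of 34472 clusters in that table. A transcript cluster is the array's probe set for a gene. Grik3 and Grm8 had a second cluster, and in those cases the brighter one stood for the gene. Of the 47 genes, 26 encode glutamate receptors and 21 encode GABA receptors.

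Ribosome-bound mRNA was measured on Affymetrix MoGene 2.0 arrays, 3 per group. All mice were transgenic and carried ribosomal protein RPL10a, tagged with Flag and EGFP, driven by the promoter of CD11b, a surface protein of microglia and other myeloid cells. They were 2 to 3 months old, of both sexes in equal number, and received saline or 5 mg/kg lipopolysaccharide (LPS), the endotoxin of Gram-negative bacteria, 24 h before the RNA was taken. Translating ribosome affinity purification (TRAP), which pulls down tagged ribosomes with their mRNA, gave 100 ng of RNA per array, and the labels were read as giving 5 mice for each array. The labels name no tissue, and no array of RNA from before the purification or of mice without the tag was analysed here.

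AMPA, kainate and NMDA receptors are ion channels built of several subunits that let cations in when glutamate binds, and metabotropic receptors act through G proteins. GABA-A receptors are chloride channels, usually with alpha, beta and gamma or delta subunits, and GABA-B receptors are G protein-coupled dimers. Most of these subunits are known chiefly from neurons, and some mark a brain region: the GABA-A alpha 6 subunit, Gabra6, is a textbook marker of cerebellar granule neurons.

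Both receptor families held genes with values above the array medians in the purified RNA. Gene values ran from 2.67, for Gabra6 in saline 2, to 11.90, for Grik3 in LPS 3. That Grik3 cluster is annotated also with ferritin light chain genes, and the highest value of any other gene was 11.49, for Gabbr2 in saline 1. The 9 measured neuron markers averaged between 11.17 and 11.45 log2 units in the saline arrays and between 11.18 and 11.40 in the LPS arrays, and the lowest single value of the 9 was 8.52, for Nefm in LPS 3. The 12 markers of resting microglia averaged between 6.45 and 6.80 with saline and between 6.09 and 6.45 with LPS. Itgam, which encodes CD11b itself, read 6.91, 6.79 and 6.46 in saline arrays 1 to 3 and 7.10, 7.12 and 6.99 in LPS arrays 1 to 3. The cell type in which a receptor transcript was translated was not measured, fewer cells of a type and less RNA per cell cannot be told apart, and levels of different genes depend on their probes. The part of neuronal RNA in the receptor signals was not tested. The medians over all clusters were 5.17, 5.15 and 5.35 in saline 1, 2 and 3 and 5.17, 5.19 and 5.42 in LPS 1, 2 and 3. Both arrays numbered 3 stood apart from the rest, as described for the receptor genes further on. Grm6, Gabrp, Gabrr1, Gabrr2 and Gabrr3 lay below the median over all clusters in every array. Gabra6 lay below it in the saline arrays and in LPS 2. Whether such dim receptor genes were detected was not tested.

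The promoters of 3 genes are shown to set side by side Gabra6, the receptor gene with the greatest difference between the groups, Cbln3, a granule neuron gene that followed it across the arrays, and Gabrb2, the next gene along the chromosome from Gabra6, which did not follow it. Each is the 250 bases before the start site, 5′ to 3′ on the gene's strand, from RefSeq, GRCm38.p6. Capitals mark the half-site TTGGC, searched on both strands, of the nuclear factor I family, transcription factors known for their role in granule neuron maturation. Gabra6 lies on the minus strand (chr11:42321073-42321322), Cbln3 on the minus strand (chr14:55884257-55884506) and Gabrb2 on the plus strand (chr11:42420190-42420439, the first of its 3 listed start sites).
Gabra6: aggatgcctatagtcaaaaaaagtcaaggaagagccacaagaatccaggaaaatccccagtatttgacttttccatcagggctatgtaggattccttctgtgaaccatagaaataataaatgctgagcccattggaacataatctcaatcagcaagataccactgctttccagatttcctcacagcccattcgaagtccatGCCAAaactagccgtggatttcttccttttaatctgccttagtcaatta
Cbln3: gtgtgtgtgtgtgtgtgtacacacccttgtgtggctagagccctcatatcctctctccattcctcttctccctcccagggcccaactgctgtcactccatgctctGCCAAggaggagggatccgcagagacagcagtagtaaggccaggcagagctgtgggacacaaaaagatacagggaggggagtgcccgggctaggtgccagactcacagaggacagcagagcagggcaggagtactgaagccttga
Gabrb2: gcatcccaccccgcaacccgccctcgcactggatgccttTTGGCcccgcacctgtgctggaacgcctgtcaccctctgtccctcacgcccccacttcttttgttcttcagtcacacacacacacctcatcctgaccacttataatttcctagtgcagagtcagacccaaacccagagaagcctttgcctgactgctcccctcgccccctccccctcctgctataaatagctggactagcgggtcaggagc
Each of the windows shown held 1 match, and those of the other 2 start sites of Gabrb2 held 0. The half-site occurred in 41.5% of the 32851 mouse promoters of this length and in 43.6% of the 39 promoters found for 32 of the 47 receptor genes, so a match is common and is only a description of these letters.

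Across the 47 receptor genes the groups differed little. The median difference over them, LPS minus saline, was -0.04 on the log2 scale (0.006 without saline 1, -0.07 without saline 3 and -0.01 without LPS 2). For all clusters it was -0.0016. Of the 47 genes 19 were positive and 28 negative, and 39 lay within 0.2 of 0. None passed limma's test at an adjusted p of 0.05, each having an adjusted p of 0.99991, where 0.0029% of all clusters did (1 of 34472). At an unadjusted p under 0.05 there was 1 receptor gene, Gabra6, or 2.13%, beside 2.26% of all clusters. The unmoderated equal-variance test likewise gave 0 genes past the adjusted threshold, and 4 at an unadjusted p under 0.05, or 8.51% beside 3.13% of all clusters. These 4 were Grm3, Grin3b, Gria2 and Grm7. Gabra6 was not among them, with an unadjusted p of 0.148 by that test. The 95% intervals of the differences reached a median of 0.40 to either side and held 0 for 46 genes. For 44 genes the whole interval lay within 1 log2 unit of 0, the exceptions being Gabra6, Grik3 and Gabrr2.

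**Figure D1:**
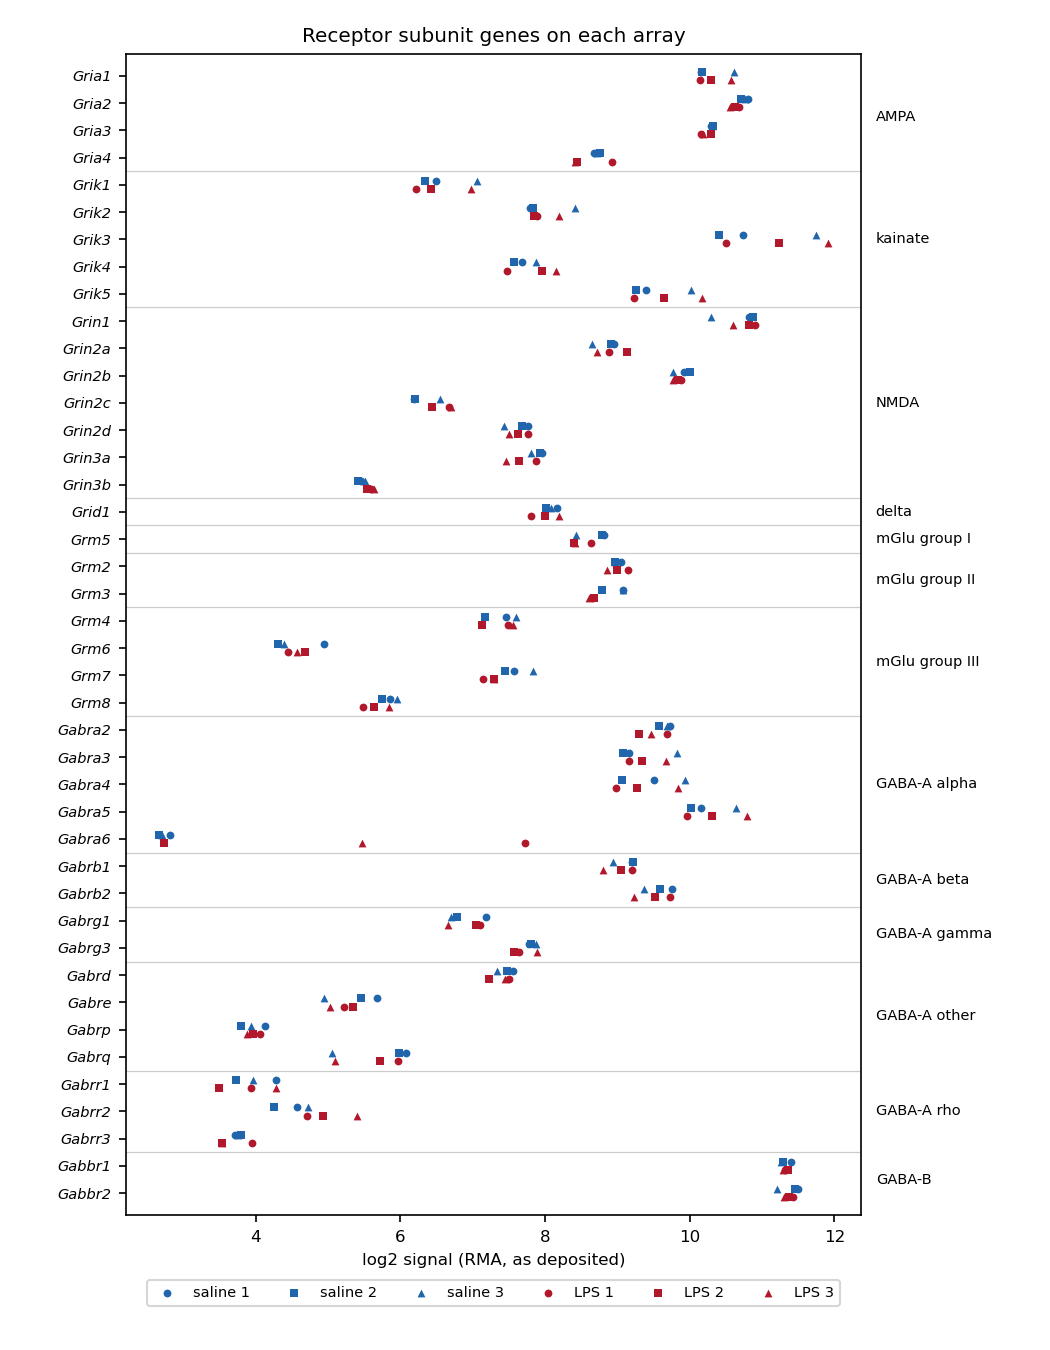
Log2 signal of 42 of the 47 receptor genes (vertical axis, grouped by class) in the 3 saline and 3 LPS arrays, each point 1 array. Points of most genes lie close together; Gabra6 is near 2.7 in all saline arrays and in LPS 2, and at 7.73 and 5.47 in LPS 1 and LPS 3.

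**Figure D2:**
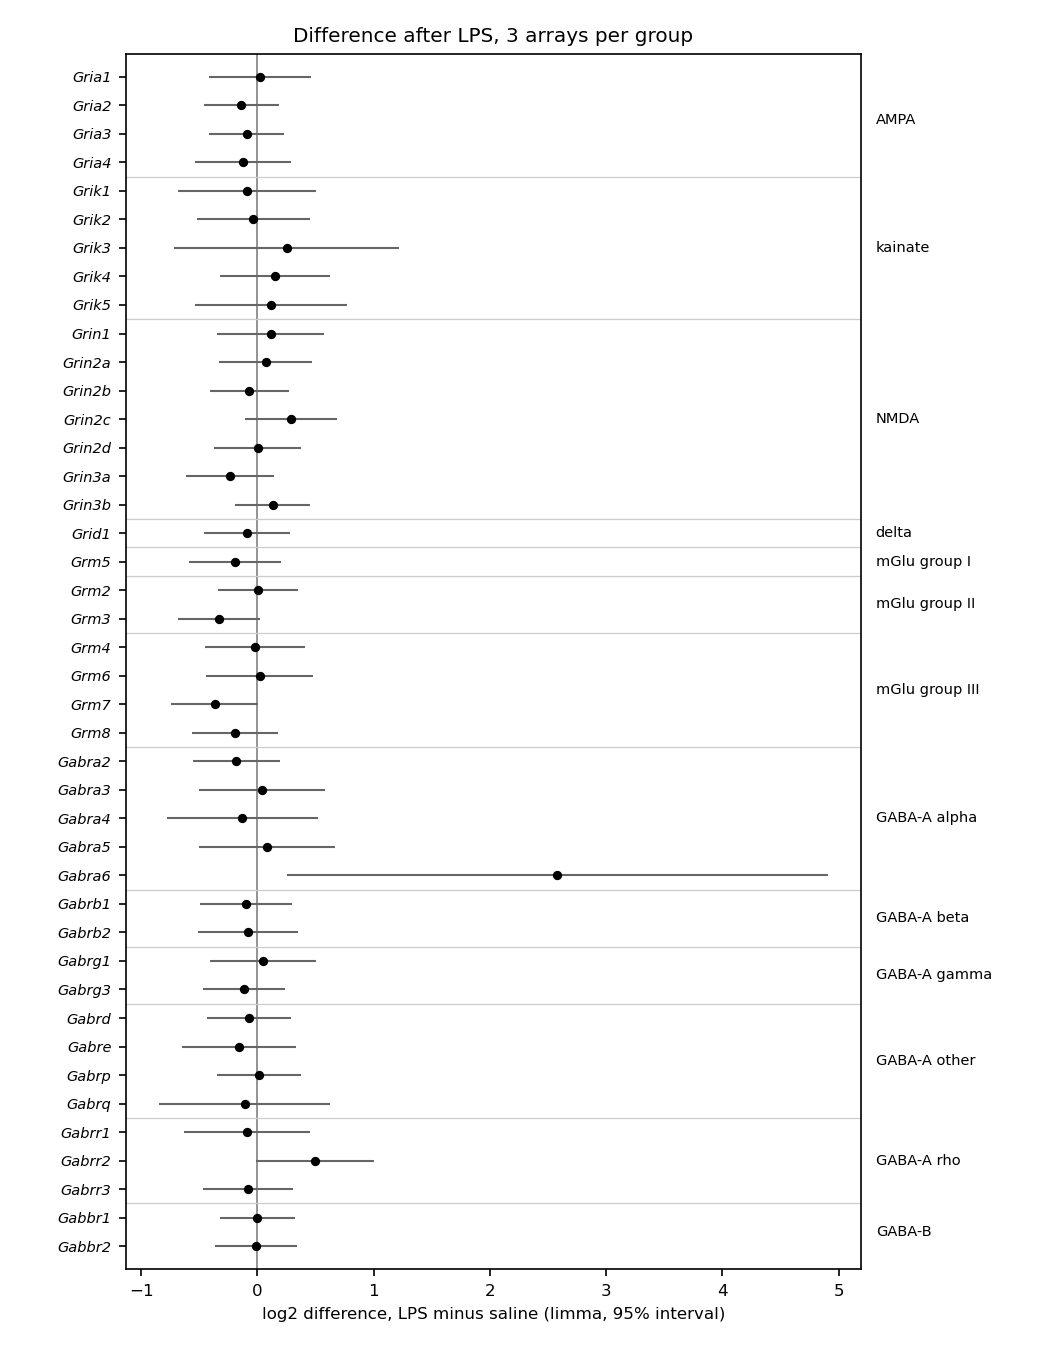
LPS minus saline difference on the log2 scale for 42 of the 47 receptor genes, with points for limma's estimate and bars for the 95% interval. Intervals of 41 of these genes include 0, and Gabra6 lies at 2.58 with an interval from 0.26 to 4.90. All intervals use limma's moderated SE.

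Gabra6 had the greatest difference of the 47. It read 2.82, 2.67 and 2.70 in saline 1, 2 and 3, and 7.73, 2.74 and 5.47 in LPS 1, 2 and 3. LPS 1 and LPS 3 were high, LPS 2 lay within the saline range, and the groups overlapped. The saline values and that of LPS 2 lay below the medians of their arrays over all clusters. Whether Gabra6 was detected in those arrays was not tested. The saline arrays averaged 2.73 ± 0.08 and the LPS arrays 5.31 ± 2.50 (SD, n = 3 in each group). The difference was 2.58 ± 1.01 (SE; 95% interval 0.26 to 4.90), with a limma adjusted p = 0.99991. This SE and interval are moderated by limma, and the unmoderated equal-variance test gave an unadjusted p of 0.148. With array weights the difference was 1.64 (limma unadjusted p = 0.133). The difference was 1.37 without LPS 1, 3.87 without LPS 2, and 0.01 with LPS 2 as the only LPS array. In the authors' deposited table the same gene had a fold of 6.27, an unadjusted p of 0.148 and an adjusted p of 0.999886.

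Other genes known from the cerebellum followed the same arrays. Cbln3, a synaptic organiser made by granule neurons, read 5.06, 5.18 and 5.21 with saline and 9.03, 5.13 and 6.94 with LPS. Pcp2, a Purkinje cell protein, read 5.36, 5.16 and 5.64 with saline and 8.14, 5.48 and 6.28 with LPS. Car8, also known from Purkinje cells, read 7.12, 6.88 and 7.23 with saline and 10.50, 7.13 and 8.27 with LPS. In all of these LPS 1 was highest, LPS 3 next, and LPS 2 near the saline values. These 3 genes were picked after their values were seen. Of the 6 granule neuron markers, LPS 1 lay above saline and LPS 2 in 5 and LPS 3 in 3, and in the other 3 LPS 3 was not above them; the mean log2 signal of the 6 was 7.53 to 7.76 in saline and 9.24, 7.52 and 7.96 in LPS 1, 2 and 3. Of the 5 Purkinje markers, LPS 1 was above in 5 and LPS 3 in 3. Over all clusters LPS 1 lay above saline and LPS 2 in 13.8% and LPS 3 in 31.9%. The Purkinje markers had a mean log2 signal of 8.17 to 8.29 in saline and 9.87, 8.23 and 8.63 in LPS 1, 2 and 3. The lowest marker value of both lists was 5.06, for Cbln3 in saline 1, below that array's median over all clusters of 5.17. Whether such dim markers were detected was not tested. The part of these lists in the Gabra6 difference was not tested.

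**Figure D3:**
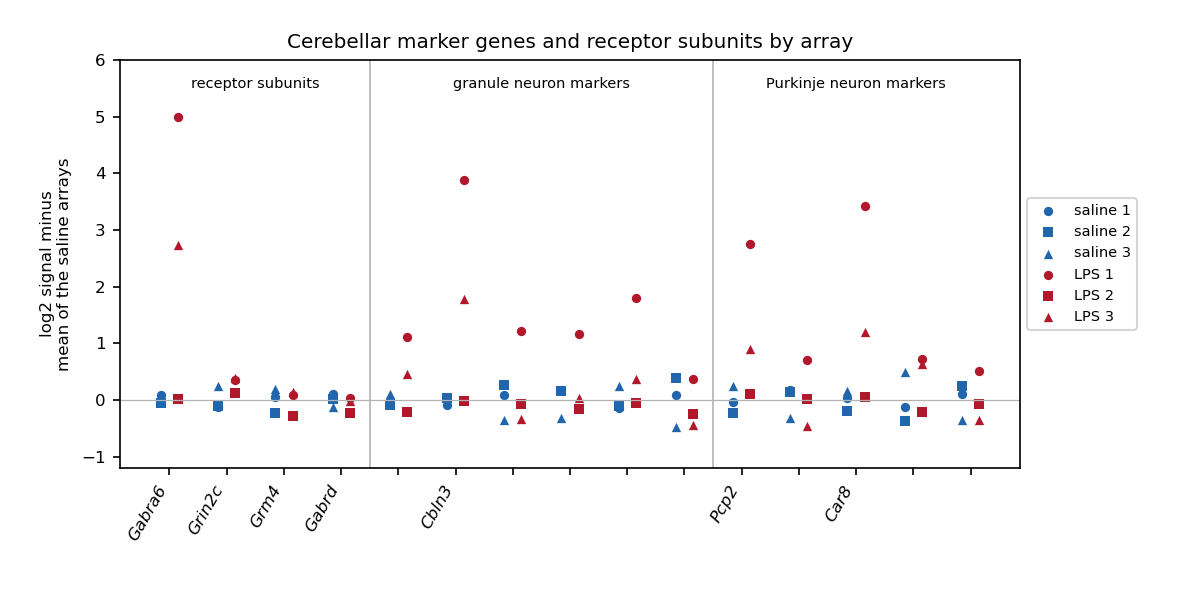
Log2 signal minus the mean of the saline arrays (vertical axis) for Gabra6, Grin2c, Grm4 and Gabrd, the 6 granule neuron markers and the 5 Purkinje neuron markers (horizontal axis, with names for the genes described in the text), each point 1 array. Gabra6, Cbln3, Pcp2 and Car8 are highest in LPS 1, next in LPS 3 and near their saline values in LPS 2, while Grm4 and Gabrd stay close to 0 in LPS 1. Grin2c lies above saline and LPS 2 by 0.11 log2 units in LPS 1 and by 0.15 in LPS 3.

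Gabra6 had the greatest excess of LPS 1 over both saline and LPS 2 of all clusters, 4.91 log2 units. In all, 25 clusters had an excess above 1, and Gabra6 was the 1 receptor gene among them. In 19 of the 25 (76%) LPS 3 was also above saline and LPS 2, beside 31.9% of all clusters. Because the 25 were chosen against those same arrays, a higher share is partly built in, and these shares are not directly comparable. Slc1a6, the glutamate transporter of Purkinje cells, read 6.97, 6.77 and 6.81 with saline and 7.53, 6.85 and 6.94 with LPS, with LPS 1 the highest by less. Gabrd, the extrasynaptic delta subunit that pairs with alpha 6 in granule neurons, read 7.56, 7.48 and 7.33 with saline and 7.50, 7.22 and 7.44 with LPS. The groups overlapped, and LPS 1 was not high.

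Gabrb2, which lies beside Gabra6 on chromosome 11 in the order of the GRCm38.p6 gene table, did not share its values. This beta subunit, common in synaptic receptors, read 9.76, 9.60 and 9.37 with saline and 9.72, 9.52 and 9.23 with LPS, a difference of -0.08 ± 0.19. LPS 1 was close to saline 1, and array 3 was the lowest of each group.

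The AMPA receptor genes, which carry most fast excitation, differed by -0.14 to 0.02. Gria1, a subunit known for its role in synaptic plasticity, read 10.16, 10.17 and 10.61 with saline and 10.15, 10.29 and 10.56 with LPS. Gria3 read 10.29, 10.32 and 10.30 with saline and 10.16, 10.29 and 10.18 with LPS. Gria4, known from the cerebellum and from interneurons, read 8.68, 8.76 and 8.72 with saline and 8.93, 8.45 and 8.41 with LPS. Gria1 was high in both arrays numbered 3 and Gria4 was highest in LPS 1, and in all of these genes the groups overlapped. Gria2, the subunit whose edited form blocks calcium entry, read 10.80, 10.71 and 10.77 with saline and 10.69, 10.62 and 10.56 with LPS. All its LPS arrays lay below all saline arrays by a small margin, and its difference was -0.14 ± 0.14 (95% interval -0.46 to 0.19).

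The kainate receptor genes, which tune release and excitability, differed by -0.09 to 0.25, with 3 of 5 positive. Grik1 read 6.49, 6.35 and 7.06 with saline and 6.21, 6.42 and 6.98 with LPS. Grik2, the most widely expressed of the channel-forming subunits, read 7.80, 7.83 and 8.42 with saline and 7.89, 7.85 and 8.20 with LPS. Grik4, a high-affinity subunit that needs a partner, read 7.68, 7.58 and 7.88 with saline and 7.48, 7.95 and 8.16 with LPS. Array 3 was the highest of its group in each of these genes, and the groups overlapped. The greatest difference was that of Grik3, at 10.73, 10.40 and 11.75 with saline and 10.50, 11.23 and 11.90 with LPS (0.25 ± 0.42). Its cluster is annotated in the deposited table also with ferritin light chain genes and had no Grik3 accession of RefSeq, and how much of its signal comes from Grik3 was not tested. The second Grik3 cluster, named for Grik3 alone, read 8.68, 8.56 and 8.59 with saline and 8.60, 8.27 and 8.41 with LPS, a difference of -0.18 ± 0.16.

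Of the 7 NMDA receptor genes, whose channels need glutamate and a co-agonist, 5 were positive, and the differences ran from -0.24 to 0.29. Grin2c, the subunit of mature cerebellum and astrocytes, read 6.18, 6.20 and 6.55 with saline and 6.67, 6.43 and 6.71 with LPS, a difference of 0.29 ± 0.17 (95% interval -0.10 to 0.68). Grin3b, a glycine-binding subunit, read 5.45, 5.41 and 5.51 with saline and 5.59, 5.54 and 5.64 with LPS, a difference of 0.13 ± 0.14 (95% interval -0.19 to 0.45). It was the 1 receptor gene with all LPS arrays above all saline arrays, 2.13% of the 47 beside 3.61% of all clusters. Grin1, the obligatory subunit, read 10.82, 10.87 and 10.29 with saline and 10.90, 10.81 and 10.60 with LPS, with overlapping groups. Grin2a, the subunit of mature forebrain receptors, read 8.96, 8.91 and 8.65 with saline and 8.88, 9.13 and 8.72 with LPS. Grin2b, its early counterpart, read 9.93, 10.01 and 9.77 with saline and 9.88, 9.84 and 9.76 with LPS. In both genes array 3 was the lowest of its group. Grin2d read 7.76, 7.68 and 7.43 with saline and 7.76, 7.63 and 7.50 with LPS. Grin3a, which lowers calcium entry, had the most negative difference of the class, -0.24 ± 0.16, from 7.96, 7.92 and 7.81 with saline and 7.88, 7.64 and 7.47 with LPS. Of the delta receptors, which bind cerebellins rather than work as ordinary glutamate channels, Grid1 ranged from 7.81 to 8.19 over the 6 arrays, both in the LPS group.

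Grm3 and Grm7, both metabotropic glutamate receptors, and Gria2 were the 3 genes with all LPS arrays below all saline arrays. These 3 are 6.38% of the 47, beside 3.1% of all clusters. Grm3, a group II receptor of neurons and astrocytes, read 9.08, 8.79 and 9.08 with saline and 8.67, 8.68 and 8.60 with LPS, a difference of -0.33 ± 0.15 (95% interval -0.69 to 0.02). Grm7, a presynaptic group III receptor, read 7.57, 7.45 and 7.83 with saline and 7.14, 7.30 and 7.30 with LPS, a difference of -0.37 ± 0.16 (95% interval -0.74 to 0.01). The LPS arrays of both genes lay close together and below saline, and neither passed the adjusted threshold. Grm5, which acts through calcium release from stores, read 8.82, 8.79 and 8.43 with saline and 8.64, 8.40 and 8.41 with LPS, a difference of -0.19 ± 0.17 (-0.12 without saline 1, -0.32 without saline 3). LPS 2 and LPS 3 were lowest, together with saline 3. Most of the other metabotropic receptors lower transmitter release. Grm2 read 9.05, 8.96 and 8.96 with saline and 9.14, 8.99 and 8.86 with LPS. Grm4, a receptor of granule neuron terminals, read 7.46, 7.17 and 7.60 with saline and 7.49, 7.13 and 7.55 with LPS. In both genes LPS 1 was close to saline 1. Grm6, the receptor of retinal bipolar cells, ranged from 4.31 to 4.95 over the 6 arrays. Grm8 differed by -0.20 ± 0.16, and its second cluster, which also names a microRNA, by -0.04 ± 0.20.

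Of the 6 GABA-A alpha subunit genes, which set where a receptor sits and how benzodiazepines act on it, 5 differed by -0.18 to 0.08, and Gabra6 is described above. Gabra2 read 9.73, 9.57 and 9.69 with saline and 9.69, 9.29 and 9.47 with LPS. Gabra4, known from striatum and thalamus, read 9.50, 9.06 and 9.93 with saline and 8.98, 9.28 and 9.84 with LPS. Gabra5, an extrasynaptic subunit of the hippocampus, read 10.16, 10.02 and 10.65 with saline and 9.97, 10.30 and 10.80 with LPS. The groups overlapped in all of these, and array 3 was high in Gabra4 and Gabra5. Gabra3 read 9.16, 9.08 and 9.82 with saline and 9.16, 9.34 and 9.67 with LPS.

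The beta and gamma subunits complete the common receptors. Gabrb1 read 9.20, 9.21 and 8.94 with saline and 9.21, 9.04 and 8.80 with LPS. Array 3 was the lowest of each group, as for Gabrb2. Gabrg1 and Gabrg3 differed by 0.05 and -0.11. Among the rarer subunits, Gabre, the epsilon subunit, read 5.67, 5.46 and 4.94 with saline and 5.22, 5.35 and 5.03 with LPS, a difference of -0.16 ± 0.21. Gabrp ranged from 3.79 to 4.13, Gabrr1 from 3.49 to 4.29 and Gabrr3 from 3.53 to 3.96 over the 6 arrays. Gabrr2, a rho subunit best known from retina, read 4.57, 4.25 and 4.72 with saline and 4.70, 4.92 and 5.40 with LPS, a difference of 0.49 ± 0.22 (0.30 without LPS 3). Its groups overlapped. Of the GABA-B genes, which encode the obligatory partners of the dimer, Gabbr1 read 11.41, 11.29 and 11.27 with saline and 11.32, 11.35 and 11.29 with LPS. Gabbr2 read 11.49, 11.45 and 11.20 with saline and 11.43, 11.37 and 11.30 with LPS, a difference of -0.01 (95% interval -0.37 to 0.34).

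With the replicate number as a block, the count at an unadjusted p under 0.05 went from 1 to 4 receptor genes, in order of p Gabra6, Gabrr2, Grm7 and Grm3. This is 8.51%, beside 5.85% of all clusters, and 0 of the 4 passed after adjustment.

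Both arrays numbered 3 were offset from the other arrays of their group in many receptor genes. For each gene the value of array 3 was set against the mean of arrays 1 and 2 of its group. All 5 kainate genes were higher in both groups, with medians of 0.64 and 0.66, and Grik5 was 9.39, 9.26 and 10.02 with saline and 9.22, 9.64 and 10.16 with LPS. Grik3 counts here by its brighter cluster, annotated also with ferritin light chain genes. Its second cluster, named for Grik3 alone, was not higher, with offsets of -0.031 in saline and -0.027 in LPS. Gabra3, Gabra4 and Gabra5 were also higher in both groups. Of the 7 NMDA genes 5 were lower and 2 higher in both groups. Of the 4 AMPA genes 1 was higher and 1 lower in both, and differences between classes were not tested. Lower in both were also Grm5 and Gabrq, the theta subunit, which read 6.07, 5.98 and 5.05 with saline and 5.96, 5.71 and 5.10 with LPS. In all, 17 receptor genes were higher in both groups (36.2%) and 18 lower (38.3%), beside 55.5% and 18.1% of all clusters. The offsets of the 2 groups correlated by r = 0.85 across the 47 genes and 0.823 without Grik3, beside 0.561 across all clusters. This is a description only: genes are not independent replicates, and both offsets come from single arrays. What array number 3 stands for is not given in the labels.

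**Figure D4:**
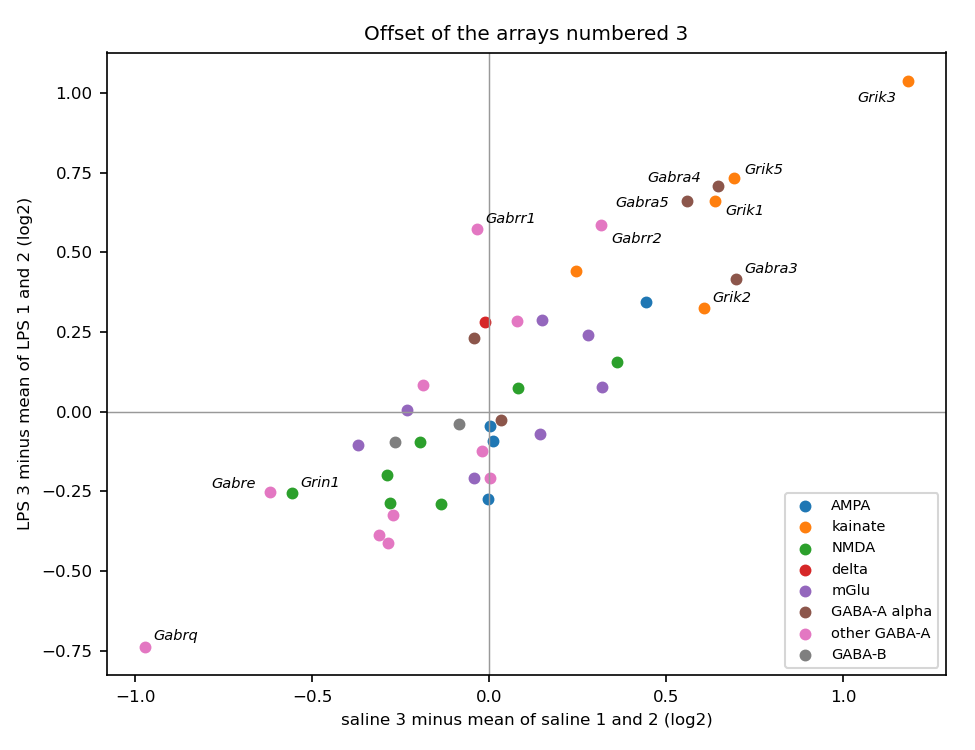
Offset of the arrays numbered 3 from the mean of arrays 1 and 2 on the log2 scale, saline on the horizontal and LPS on the vertical axis, each point 1 of 42 of the 47 receptor genes, coloured by class. Kainate genes and Gabra3, Gabra4 and Gabra5 lie to the upper right, Gabrq (-0.97 and -0.74) to the lower left. Grik3 is drawn by its brighter cluster, annotated also with ferritin light chain genes.

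In the 5 lists of genes that act with these receptors, no gene passed the adjusted threshold by limma and none was at an unadjusted p under 0.05. With the replicate block 3 were, Homer1, Homer2 and Slc1a3, and 0 of them after adjustment. They are 10% of the excitatory scaffold list and 10% of the glutamate handling list, and the remaining lists had none. Over all clusters the share with the block was 5.85%. Of 14 auxiliary subunits of AMPA and kainate receptors, which set their gating and trafficking, 9 were negative, with a median of -0.10; Neto2 differed by -0.26 ± 0.20 and Cacng5 by 0.17 ± 0.15. Of 20 genes of the excitatory scaffold, 15 were negative, with a median of -0.11; Homer1, which tethers group I metabotropic receptors, differed by -0.44 ± 0.20 and Shank3 by -0.29 ± 0.16. Of 11 genes of the inhibitory scaffold 6 were negative, with a median of -0.03; Kctd8 and Kctd16, auxiliary subunits of GABA-B receptors, differed by 0.28 ± 0.15 and -0.27 ± 0.16. Of 10 genes of glutamate handling 7 were positive, with a median of 0.02; Slc1a3, the astrocytic transporter, differed by 0.39 ± 0.26 and Slc1a6 by 0.26 ± 0.21. Of 8 genes of GABA handling 5 were positive, with a median of 0.08; Abat, which breaks GABA down, differed by 0.13 ± 0.17. Array 3 was higher in both groups in 11 of 14 auxiliary subunits, 13 of 20 excitatory scaffold genes and 7 of 11 inhibitory scaffold genes, beside 55.5% of all clusters. It was lower in both in 8 of 10 glutamate handling and 6 of 8 GABA handling genes, beside 18.1%.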

How the data were processed

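Ribosome-bound RNA was measured on 6 arrays, 3 after saline and 3 after LPS. The log2 values per transcript cluster are the authors' RMA values; the submitters' processing notes name Affymetrix Expression Console and Transcriptome Analysis Console, the latter as version 3.0 in the series' design text. The deposited comparison table gives, per the file headers, group averages, a signed linear fold (a score with no values between -1 and 1), a p-value and an adjusted p-value. The sources used here do not give the genome build. RMA compresses differences of dim clusters, and the number of arrays limits the precision.

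Of the 41345 clusters of the value table, the 34472 listed in the comparison table were fitted by lmFit and eBayes of limma 3.58.1 (R 4.3.3) with a group term alone, with Benjamini-Hochberg adjustment over all of them at 0.05. SE are moderated; SD are between arrays. The fit was run on simulated independent normal values, with less spread than the average within the groups here and no offset of single arrays. That run cannot show how the fit behaves on these arrays. Receptor genes and gene lists were chosen with earlier results of these data known. The genes given with tests were those at an unadjusted p under 0.05, those whose groups do not overlap, the one with the greatest difference in each class and, in each list, the 2 with the smallest p; others named were chosen after their values were seen. Some genes met by this rule are counted in all totals and are not reported here by name. By symbol 47, and by accession 46, receptor genes matched the RefSeq table; Dlgap2 and Map2 were not named in the comparison table.

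Arrays of the same number were checked for pairing by correlating deviations from the group means over the clusters tested. Numbers 1, 2 and 3 gave 0.273, 0.123 and 0.561, all above 0.1, though saline 2 and LPS 1 correlated by 0.412 and saline 1 and LPS 2 by 0.143. Deviations of 3 arrays sum to 0 within a group, so these correlations depend on each other. They cannot show by themselves whether numbers 1 and 2 are paired. The meaning of the numbers is not in the labels, which call the samples biological replicates. The block, centring, a second quantile normalization, brightness, all clusters, array weights, an unmoderated test and leaving out arrays were alternatives.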

Additional observations from a re-analysis of the deposited data

How the results depend on the processing

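No receptor gene passed the adjusted threshold in any alternative, and the median difference ran from -0.075 with array weights to 0.006 without saline 1, where its sign changed, moves below the spread between arrays (SD 0.15). Counts of receptor genes are followed by the share of all clusters under the same setting. At an unadjusted p under 0.05 there was 1 in the reported fit, and 4 with the replicate block (5.85%), 4 with arrays centred on their medians (3.14%), 3 after a second quantile normalization (3.11%), 2 of 41 among brighter clusters (2.41%), 4 with the unmoderated test (3.13%), 5 with array weights (8.26%), 0 without LPS 1 and LPS 3 (2.43%) and 0 without both arrays numbered 3 (5.51%). Leaving out single arrays gave 0 to 2, with 0 without saline 1 (1.69%) or LPS 3 (2.95%) and 2 without saline 2 (1.89%) or saline 3 (3.93%). Genes with all LPS arrays below saline, 3 as reported, were 12 when only same-numbered pairs are compared (13.5%), 15 without LPS 1 and LPS 3 (29.1%) and 13 without both arrays numbered 3 (17.8%). Without single arrays they were 4 to 10, with 10 without saline 3 (7.3%), 8 without LPS 1 (7.21%) and 6 without LPS 3 (12.4%). Those above, 1 as reported, were 6 in the pairs (13.1%), 5 without LPS 1 and LPS 3 (14.8%), 7 without both arrays numbered 3 (16%), 2 after centring (2.92%) and 3 after quantile normalization (3.73%). Without single arrays they were 1 to 7, with 7 without saline 3 (12.9%) and 4 without saline 1 (5.95%), LPS 1 (8.21%) or LPS 2 (7.91%). Fewer arrays make groups without overlap easier to reach by construction. Signs changed in 7 of 223 values of 14 named genes: Grik3 was -0.18 by its other cluster and -0.094 to 0.65 without single arrays, Gabre -0.36 to 0.0012 and Gabbr2 -0.102 to 0.0414. The cause was not tested. Over all clusters, 1 passed as reported, 12 without LPS 1, 0 without saline 1, saline 2, LPS 2 or LPS 3, 3 with the block, 22 with array weights, 2 without LPS 1 and LPS 3, 2 without both arrays numbered 3, 0 in the unmoderated test and 0 over all 41345 clusters. The alternatives without pairs of arrays and by the other Grik3 cluster were added after seeing the data; without LPS 1 and LPS 3, the lone LPS array is assumed to vary like the saline arrays.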

Other observations

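The other clusters with LPS 1 more than 1 log2 unit above saline and LPS 2, chosen after their values were seen, included further genes known from the cerebellum. Ppp1r17, a phosphatase inhibitor known from Purkinje cells, had an excess of 3.27, and Fat2, a cadherin known from granule neurons, of 1.86. Dao, which breaks down D-serine, a co-agonist of NMDA receptors, read 4.75, 4.46 and 4.50 with saline and 6.81, 4.41 and 4.63 with LPS. Homer3, a scaffold of Purkinje cell synapses, read 6.98, 7.07 and 7.26 with saline and 8.36, 6.45 and 7.15 with LPS. LPS 3 lay within the saline range for both of these.

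A single array lay more than 1 log2 unit above all others for 1 cluster in saline 1, 2 in saline 2, 64 in saline 3, 17 in LPS 1, 3 in LPS 2 and 54 in LPS 3.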
